A study of Mus musculus with 9 samples.

Results

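Oxidative phosphorylation is carried out by 5 protein complexes of the inner mitochondrial membrane, and most of their subunits are encoded in the nucleus. The genes described here are the nuclear subunit genes found by symbol (those beginning Nduf followed by a, b, c, s or v and a number, Sdha to Sdhd, Uqcr, Cox4 to Cox8 with a letter a, b or c, and Atp5) with a mean of at least 1 FPKM over the 9 libraries. FPKM is a count of sequenced fragments scaled by transcript length and by the depth of the library. The symbols matched 80 of the 17179 genes listed in the series, all 80 passed the minimum, and 12997 genes in all did so and were tested. By complex, 35 genes belonged to complex I, 4 to complex II, 8 to complex III, 16 to complex IV and 15 to complex V. The other 2, Atp5s and Atp5sl, carry an ATP synthase name but do not encode subunits of that enzyme. Ndufa4 and Ndufa4l2, named after complex I, were placed with complex IV, where the Ndufa4 protein is now assigned. No matching symbol lay below the minimum, and the lowest member was Atp5s with a mean of 2.37 FPKM.

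The libraries were bulk RNA-seq of C57BL/6J mouse aorta. All mice outside the normal group (distilled water) were fed β-aminopropionitrile (BAPN, 1 g/kg/day), which blocks lysyl oxidases, the enzymes that cross-link collagen and elastin. There were 2 normal libraries, 2 from mice given BAPN alone, 2 from mice that also received injections of TPA, which activates AP-1, a transcription factor (50 ng/g/day, starting on day 1), 2 from mice that also received the AP-1 inhibitor T-5224 by gavage (5 mg/kg/day) and 1 from mice that also received coenzyme Q10 (coQ10, 10 mg/kg/day). Mice were killed on day 28. Gavage began on day 7 or on day 14, and the sources used here do not tie a start to a library. The T-5224 libraries are titled 2 weeks (replicate 1) and 3 weeks (replicate 2), so a difference between them cannot be told apart from a difference in treatment time. The sources used here give no age, sex or pooling of animals, and the treatment label of the single coQ10 library is spelled in another form, read here as coQ10.

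In the respiratory chain, complex I takes electrons from NADH and complex II takes them from succinate, and both pass them through coenzyme Q to complex III. Complex III hands them to cytochrome c, and complex IV, cytochrome c oxidase, passes them to oxygen. The proton gradient built up along the way drives complex V, the ATP synthase. Heart muscle, skeletal muscle and brown fat are rich in these complexes, and for several complex IV subunits they use isoforms that other tissues make little of. The 13 protein-coding genes of the mitochondrial genome, which encode the remaining subunits, were listed in none of the 9 libraries, so nuclear and mitochondrial subunits could not be set side by side.

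The results below describe 3 pairs of complex IV isoforms. The 250 bases before the transcription start are shown for the 5 of those 6 genes that the promoter table held. Each is printed 5′ to 3′ on the strand of the gene, and capitals mark a match to a motif named after the sequences. The sequences are from RefSeq, build GRCm38.p6. Cox6a1 is at chr5:115348959-115349208 (minus strand), Cox7a1 at chr7:30183921-30184170 (plus), Cox7a2 at chr9:79759854-79760103 (minus), Cox8a at chr19:7217617-7217866 (minus) and Cox8b at chr7:140900447-140900696 (minus).
Cox6a1: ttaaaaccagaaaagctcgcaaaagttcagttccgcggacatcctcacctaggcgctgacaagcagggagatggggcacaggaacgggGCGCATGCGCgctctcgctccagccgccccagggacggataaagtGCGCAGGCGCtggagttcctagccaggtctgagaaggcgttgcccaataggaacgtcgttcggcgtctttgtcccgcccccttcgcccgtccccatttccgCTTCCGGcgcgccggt
Cox7a1: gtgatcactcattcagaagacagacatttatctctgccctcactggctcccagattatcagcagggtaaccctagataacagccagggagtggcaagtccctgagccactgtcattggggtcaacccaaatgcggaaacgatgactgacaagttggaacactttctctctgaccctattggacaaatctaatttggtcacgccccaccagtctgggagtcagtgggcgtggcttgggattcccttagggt
Cox7a2: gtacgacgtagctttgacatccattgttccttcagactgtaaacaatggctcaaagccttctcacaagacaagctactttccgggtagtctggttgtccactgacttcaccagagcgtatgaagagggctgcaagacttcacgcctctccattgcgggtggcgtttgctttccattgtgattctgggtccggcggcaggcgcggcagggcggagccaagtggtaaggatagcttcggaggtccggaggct
Cox8a: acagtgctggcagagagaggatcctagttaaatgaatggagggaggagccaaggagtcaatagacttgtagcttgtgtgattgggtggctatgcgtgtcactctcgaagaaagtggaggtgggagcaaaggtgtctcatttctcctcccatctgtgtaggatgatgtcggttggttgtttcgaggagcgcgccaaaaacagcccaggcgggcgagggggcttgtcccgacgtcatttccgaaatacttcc
Cox8b: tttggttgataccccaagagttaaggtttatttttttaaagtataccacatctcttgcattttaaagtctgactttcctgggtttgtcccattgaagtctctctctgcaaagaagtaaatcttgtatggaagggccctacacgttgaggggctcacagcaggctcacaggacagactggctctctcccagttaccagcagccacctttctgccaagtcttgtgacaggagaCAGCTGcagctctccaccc
Cox6a1, the isoform found in most tissues, held 2 matches to the NRF1 motif (GCGC, any base, then TGCGC), beginning 162 and 117 bases before the start, and 1 match to the ETS motif CCGGAAG at 16 bases. Cox8b held 1 match to the E-box CAGCTG at 19 bases, and Cox7a1, Cox7a2 and Cox8a held no match to any motif searched. The marked matches do not overlap each other. Motifs were searched on both strands in the promoters of 68 members and 9923 tested genes. NRF1, a regulator of nuclear genes for mitochondrial proteins, had a match in 13 members (19.1%) against 8.83% of all. ETS had a match in 12 (17.6%) against 14.7%, and the YY1 motif AAGATGGCG in 2 (2.94%) against 1.31%. The oestrogen-related receptor motif TCAAGGTCA matched in 1 member (1.47%) against 0.312%, the E-box CAGCTG in 6 (8.82%) against 14.7%, and MEF2 in 0 against 2.12%. A match is a description of letters and not a binding site, and a missing match says nothing of the factor.

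The libraries differed in more than the treatment, and these values stand beside all results below. Haemoglobin took 1.25% and 1.03% of all FPKM in the normal libraries, with BAPN at 68.9% and 74.1%, TPA at 69.4% and 69.2%, T-5224 at 40.8% and 11.2%, and coQ10 at 5.40%. Smooth muscle markers of the contractile type, which define the aortic media, were all listed in every library and differed between the groups. Their mean log2(FPKM + 1) was 9.16 and 10.08 for normal, 6.88 and 5.67 for BAPN, 7.81 and 8.17 for TPA, 9.27 and 7.58 for T-5224 and 9.12 for coQ10. All 7 were below 0 in BAPN against normal, with a median difference of -3.67, and 1 of them, Lmod1, passed (limma adjusted p = 0.049). Against BAPN their median difference was 1.55 for TPA, 1.97 for T-5224 and 3.54 for coQ10, where none passed in limma. The marker Des departed from the others of this list. It was at 383 and 58.1 FPKM in normal, with BAPN at 109 and 35.3, TPA at 349 and 548, T-5224 at 23.6 and 525, and coQ10 at 21.25. Every other marker of the list was lower in normal replicate 1 and in T-5224 replicate 2 than in the paired replicate, and above BAPN in coQ10. The part of smooth muscle in the comparisons below was not tested. The 11 skeletal muscle markers had means of 6.498 and 1.22 in normal, with BAPN at 7.05 and 6.73, TPA at 8.11 and 8.95, T-5224 at 1.38 and 8.22, and coQ10 at 1.96. The 8 cardiac muscle markers had means of 9.62 and 2.49 in normal, with BAPN at 1.89 and 2.63, TPA at 7.98 and 5.85, T-5224 at 2.17 and 6.48, and coQ10 at 2.57. Markers of brown fat (4 genes, without Cox8b) had means of 5.62 and 3.21 in normal, with BAPN at 3.29 and 2.43, TPA at 4.57 and 4.56, T-5224 at 2.95 and 4.14, and coQ10 at 5.80. Every marker of these 3 lists was listed in every library except the brown fat gene Elovl3, at 0 in normal replicate 2, both BAPN libraries and T-5224 replicate 1, and the skeletal myosin Myh2, at 0 in T-5224 replicate 1. In bulk tissue, fewer cells of a type and less RNA per cell cannot be told apart.

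The nuclear oxidative phosphorylation genes were abundant. Their mean ranged up to 1244.5 FPKM for Cox6a1, 60 of the 80 exceeded 100 FPKM, and 79 were listed in all 9 libraries, the exception being Cox6a2. The median complex I gene was at 183 and 67.2 FPKM in the normal libraries, with BAPN at 104 and 79.5, TPA at 103 and 120, T-5224 at 92.3 and 220, and coQ10 at 140. Complex II medians were 232 and 84.8 in normal, with BAPN at 105 and 62.6, TPA at 113 and 112, T-5224 at 64.4 and 194, and coQ10 at 151. Normal replicate 1 and T-5224 replicate 2 had the highest medians of complexes I, II, III and V, and the replicate of each lay far below it. In complex IV, coQ10 lay above normal replicate 1. Complex III medians were 434 and 140, 199 and 134, 215 and 287, 182 and 367, and 364 FPKM in the same order. Those of complex IV were 327 and 106, 192 and 166, 253 and 297, 96.5 and 599.8, and 393 FPKM. Complex V had medians of 362 and 162, 291 and 203, 221 and 261, 196 and 539, and 329 FPKM. The normal libraries lay on both sides of all BAPN and TPA medians in complexes I, IV and V, and the T-5224 libraries did so in complexes IV and V.

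**Figure D1:**
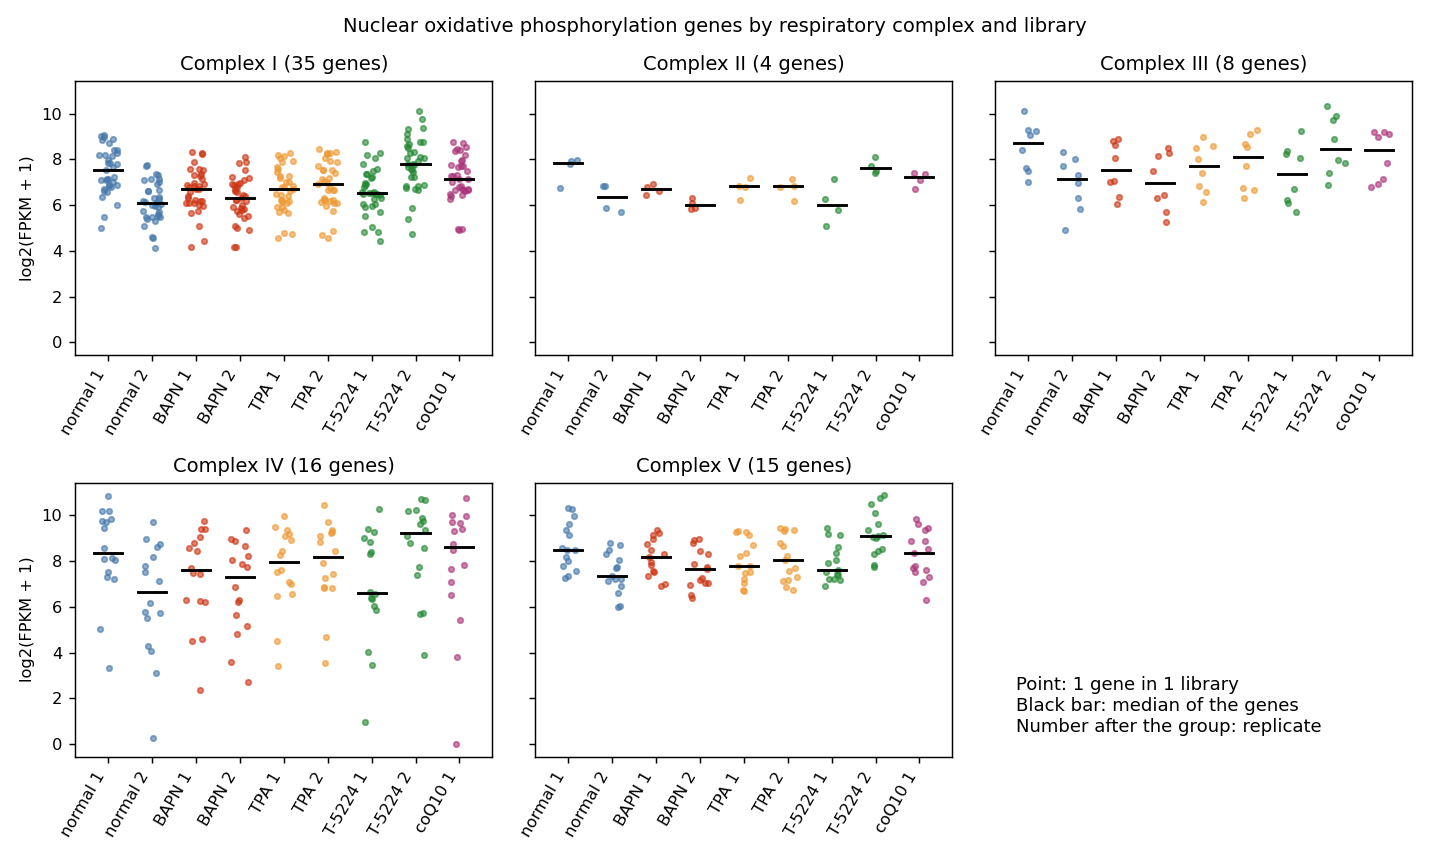
Level of each nuclear oxidative phosphorylation gene as log2(FPKM + 1) on the vertical axis in each of the 9 libraries on the horizontal axis, with 1 panel per complex; points are genes and black bars are medians. Normal replicate 1 and T-5224 replicate 2 stand above their own replicates in all 5 panels, and the complex IV points near 0 are Cox6a2.

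Normal replicate 1 and T-5224 replicate 2 stood apart from their own replicates. Normal replicate 1 was above normal replicate 2 in 80 of 80 genes, by a median of 2.69-fold on the FPKM + 1 scale, while of all tested genes 64.2% were higher in replicate 1, by a median of 1.16-fold. T-5224 replicate 2 was above replicate 1 in 79 of 80, by a median of 2.37-fold, while of all tested genes 47.1% were higher in replicate 2, with a median ratio of replicate 2 to replicate 1 of 0.962. The exception was Cox7a1. BAPN replicate 1 was above replicate 2 in 72 genes, by a median of 1.35-fold, and TPA replicate 2 above replicate 1 in 60, by 1.11-fold. The highest library was T-5224 replicate 2 for 54 genes, normal replicate 1 for 24 and coQ10 for 2, and the lowest was normal replicate 2 for 43, BAPN replicate 2 for 22, T-5224 replicate 1 for 9, BAPN replicate 1 for 3 and other libraries for the rest. The means of the skeletal and cardiac muscle markers were also higher in normal replicate 1 than in replicate 2 and in T-5224 replicate 2 than in replicate 1. So were the means of 5 airway epithelium markers (9.50 against 2.47 in normal, 6.41 against 1.2996 in T-5224), of 5 white adipocyte markers (7.81 against 3.53, and 4.63 against 3.11) and of the brown fat markers above. Endothelium (6.48 against 5.74, and 5.85 against 4.26) and neutrophil means (2.89 against 2.38, and 4.75 against 3.86) were higher too. The contractile smooth muscle mean was lower in both (9.16 against 10.08, and 7.58 against 9.27). Means of fibroblasts (6.25 against 5.40, and 4.46 against 6.57), macrophages (3.94 against 2.80, and 2.73 against 4.08) and red blood cells (7.76 against 7.395, and 10.7 against 13.1) were higher in normal replicate 1 but lower in T-5224 replicate 2. Not every marker followed its mean in T-5224. The brown fat gene Ucp1 was at 22.6 FPKM in replicate 1 and 19.7 in replicate 2, and the cardiac gene Ryr2 at 1.62 and 0.80. The white adipocyte gene Lep was at 0 in replicate 2 and above 0 in replicate 1. The part of these markers in the result was not tested. Transcript length and the deviation of a library from the mean had a rank correlation of 0.273 and 0.400 for normal and of 0.007 and -0.374 for T-5224, and the members were short, with a median transcript of 1025.5 bases against 3336 for all tested genes. The part of this length trend was not tested for the replicate gaps.

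**Figure D2:**
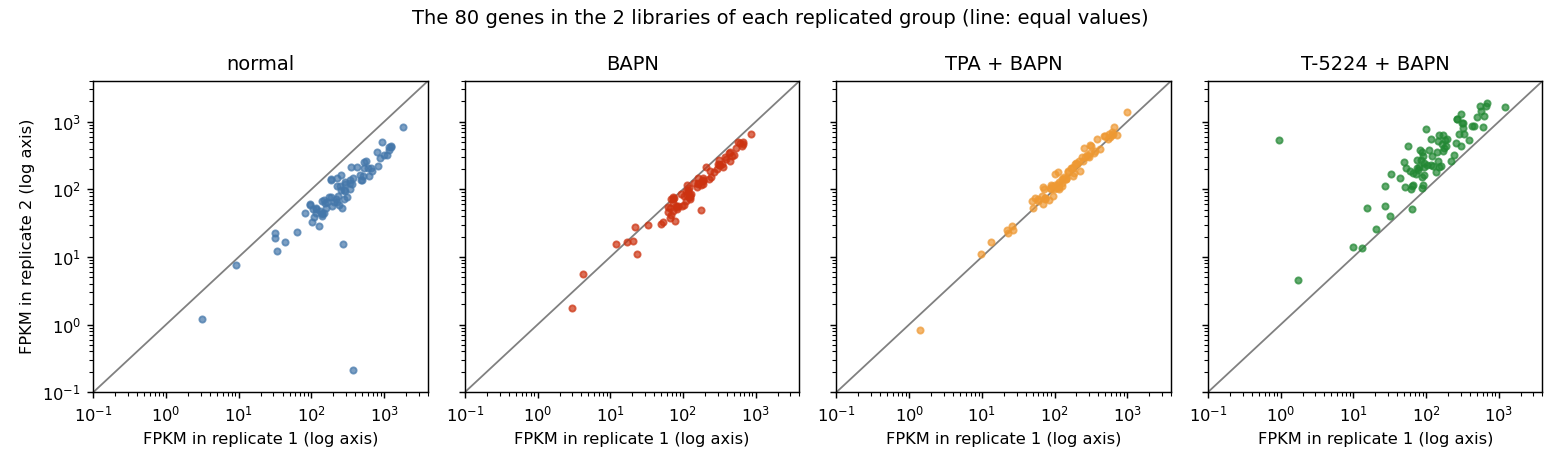
FPKM of the 80 genes in replicate 1 (horizontal, log axis) against replicate 2 (vertical, log axis) for the 4 replicated groups, with a line of equal values. All 80 normal points lie below the line and 79 of 80 T-5224 points above it, while 72 BAPN points lie below it and 60 TPA points above it, at smaller median distances (1.35-fold and 1.11-fold).

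As a share of all expression, the 80 genes together made up 5.09% and 2.16% of all FPKM in the normal libraries, with BAPN at 1.00% and 0.666%, TPA at 1.17% and 1.33%, T-5224 at 1.66% and 3.44%, and coQ10 at 3.85%. With haemoglobin left out of the sum, the shares were 5.16% and 2.19% in normal, with BAPN at 3.22% and 2.57%, TPA at 3.82% and 4.31%, T-5224 at 2.81% and 3.87%, and coQ10 at 4.07%. On the whole sum the BAPN and TPA libraries lay below the other 5. Without haemoglobin the BAPN libraries lay between the normal libraries, and the TPA libraries remained above BAPN.

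**Figure D3:**
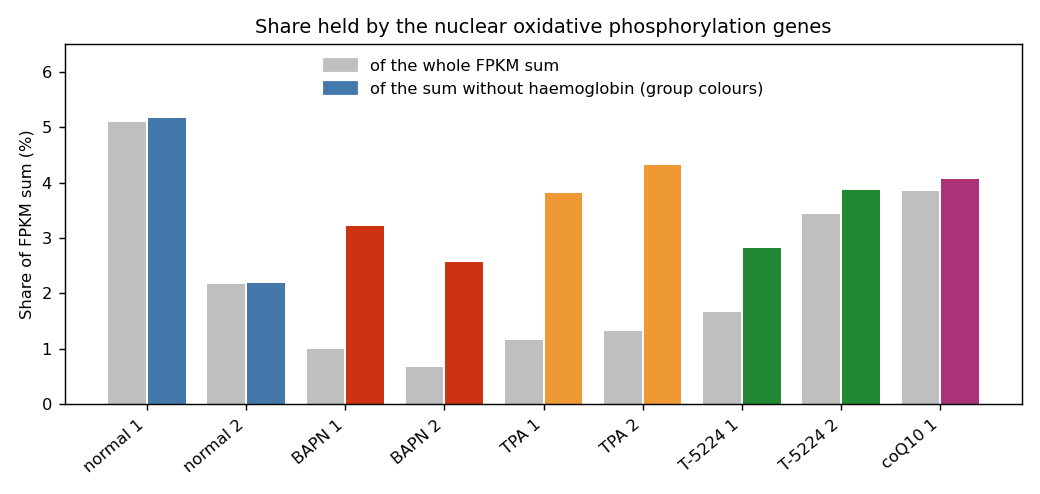
Share of the FPKM sum (%) held by the 80 genes in each library, of the whole sum (grey) and of the sum without haemoglobin genes (coloured by group). BAPN lies at 0.666% to 1.00% of the whole sum and at 2.57% to 3.22% without haemoglobin, between the normal values of 2.19% and 5.16%.

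The 80 genes had similar profiles across the libraries. Over the 9 libraries, which share 5 treatments and the technical features above, a member's log2(FPKM + 1) correlated with the median profile of the members at a median r of 0.896, and 39 members exceeded 0.9. For all 12997 tested genes the median r was 0.164 and 1.28% exceeded 0.9. The closest was Ndufb5, a membrane arm subunit of complex I, with r of 0.995, followed by Atp5o, a stalk subunit of ATP synthase, with 0.989. The loosest were Cox6a2 (0.492), Atp5sl (0.5005), Cox7a1 (0.550), Atp5k (0.594) and Cox7a2l (0.612), 3 of them genes of complex IV. These values describe 9 libraries and carry no test.

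In the comparisons, 1 linear model in limma was fitted to log2(FPKM + 1) of all 9 libraries, and differences are on that log2 scale. P-values were adjusted over all 12997 tested genes, with a threshold of 0.05. No member passed in any of the 5 comparisons, or in the F test of any difference among the groups. The p-values measure only the spread between these libraries, which may be technical, since nothing says which animals each came from. The T-5224 libraries carry different weeks in their titles, so the spread shared by all comparisons may also hold a difference in treatment time. All comparisons but the last share the BAPN libraries, so their values are given side by side and are not independent.

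The first comparison set BAPN-fed mice against mice on distilled water. None of the 80 passed in limma, where 3.26% of all tested genes did, and 1 member had an unadjusted p under 0.05, against 32.4% of all genes. The median member differed by -0.33 on the log2 scale and 65 of 80 were below 0, while the median of all tested genes was -0.51, so that relative to all genes the members stood at 0.18. By complex the medians were -0.35 for I, -0.57 for II, -0.39 for III, -0.33 for IV and -0.12 for V. The member median was 0.25 with median-of-ratios scaling (all genes -0.01), -1.98 after rescaling to TPM (all genes -1.92) and -0.02 with quantile normalization (all genes -0.09). With the length trend removed it was -0.35 (all genes -0.03), so that the members then stood below all genes. It was 0.39 without normal replicate 1 (all genes -0.32) and -1.03 without normal replicate 2 (all genes -0.65). Without BAPN replicate 1 it was -0.55 (all genes -0.53), and without BAPN replicate 2 it was -0.13 (all genes -0.50). The libraries of both groups did not overlap for 9 members. Ndufa2 and Cox7a2l were higher in BAPN (background 15% of genes), and Ndufa11, Ndufs1, Ndufs6, Sdha, Sdhc, Cox6b2 and Atp5j were lower (background 51.1%).

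The second comparison added TPA to BAPN. Again 0 of 80 members passed in limma, against a background of 0.0385%, and 1 had an unadjusted p under 0.05, against 10.2% of all genes. The median member differed by 0.34 and 67 of 80 were above 0, with 0.18 for all genes. The TPA libraries lay above both BAPN libraries for 41 members (background 41.4%) and below both for 6 (background 21.2%). The member median was 0.14 with median-of-ratios scaling (all genes 0.0067), 0.33 with quantile normalization (all genes -0.02) and 0.33 with the length trend removed (all genes -0.0054). With haemoglobin left out of the sum the member median was 0.46 (all genes 0.28), and after rescaling to TPM the member median was 0.56 (all genes 0.33). It was 0.54 without BAPN replicate 1 (all genes 0.18) and 0.14 without BAPN replicate 2 (all genes 0.17). By complex the medians were 0.26 for I, 0.45 for II, 0.50 for III, 0.54 for IV and 0.17 for V.

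The third comparison added T-5224, the AP-1 inhibitor, to BAPN. In limma 0 of 80 passed, against a background of 0.0308%, and 3 had an unadjusted p under 0.05 (Ndufa11, Cox6b2 and Atp5j), against 18.3% of all genes. The median member differed by 0.75 and 77 of 80 were above 0, with 0.35 for all genes. Both T-5224 libraries exceeded both BAPN libraries for 32 members (background 34.2%), and no member lay below (background 12.8%). The size rested on T-5224 replicate 2, without which the member median was 0.12 and all genes 0.34, and without replicate 1 it was 1.34 and 0.25. Without BAPN replicate 2 the member median was 0.49 (all genes 0.32). It was 0.17 with haemoglobin left out of the sum (all genes -0.12), 0.39 with median-of-ratios scaling (all genes 0.04), 0.20 with the length trend removed (all genes 0.04) and 0.18 with quantile normalization (all genes 0.12). Complex I differed by 0.80, II by 0.58, III by 0.70, IV by 0.75 and V by 0.76.

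CoQ10 added to BAPN had a single library, and its spread was taken to be that of the replicated groups. In limma 0 of 80 passed, against a background of 0.0154%, and 2 had an unadjusted p under 0.05 (Cox6b2 and Cox7a1), against 19.8% of all genes. The median member differed by 0.70 and 73 of 80 were above 0, with 0.39 for all genes. The coQ10 library lay above both BAPN libraries for 72 members (background 59.6%) and below both for 5 (background 24.1%). The member median was 0.21 with median-of-ratios scaling (all genes -0.0027) and 0.26 with quantile normalization (all genes 0.08), and 0.44 with haemoglobin left out of the sum (all genes 0.18). Complex V had the smallest median, 0.39, beside 0.69 for complex I, 0.85 for II, 0.77 for III and 0.87 for IV, where Cox6a2, unlisted in coQ10 and set to 0, counts as lower.

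TPA against T-5224, both on BAPN, compared the activator with the inhibitor. In limma 0 of 80 passed, against a background of 0.0154%, and 1, Atp5j, had an unadjusted p under 0.05, against 10.9% of all genes. The median difference, TPA minus T-5224, was -0.32 with 70 of 80 below 0, and all genes were at -0.08. By complex the medians were -0.51 for I, -0.02 for II, -0.20 for III, -0.20 for IV and -0.59 for V. The TPA libraries lay above both T-5224 libraries for 3 members (Ndufa3, Cox7a1 and Atp5sl; background 16.5%) and below both for 15 (background 28%). The member median was 0.20 without T-5224 replicate 2 (all genes -0.19), 0.17 with the length trend removed (all genes 0.02) and 0.15 with quantile normalization (all genes -0.08). With haemoglobin left out of the sum it was 0.37, below the 0.48 of all genes. It was -1.04 without T-5224 replicate 1 (all genes -0.0083) and -0.49 without TPA replicate 2 (all genes -0.06). The F test over the 5 groups called 0 of 80 in limma, against a background of 0.0692%, with 1 member at an unadjusted p under 0.05 and the smallest adjusted p of 0.253 for Cox6b2.

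**Figure D4:**
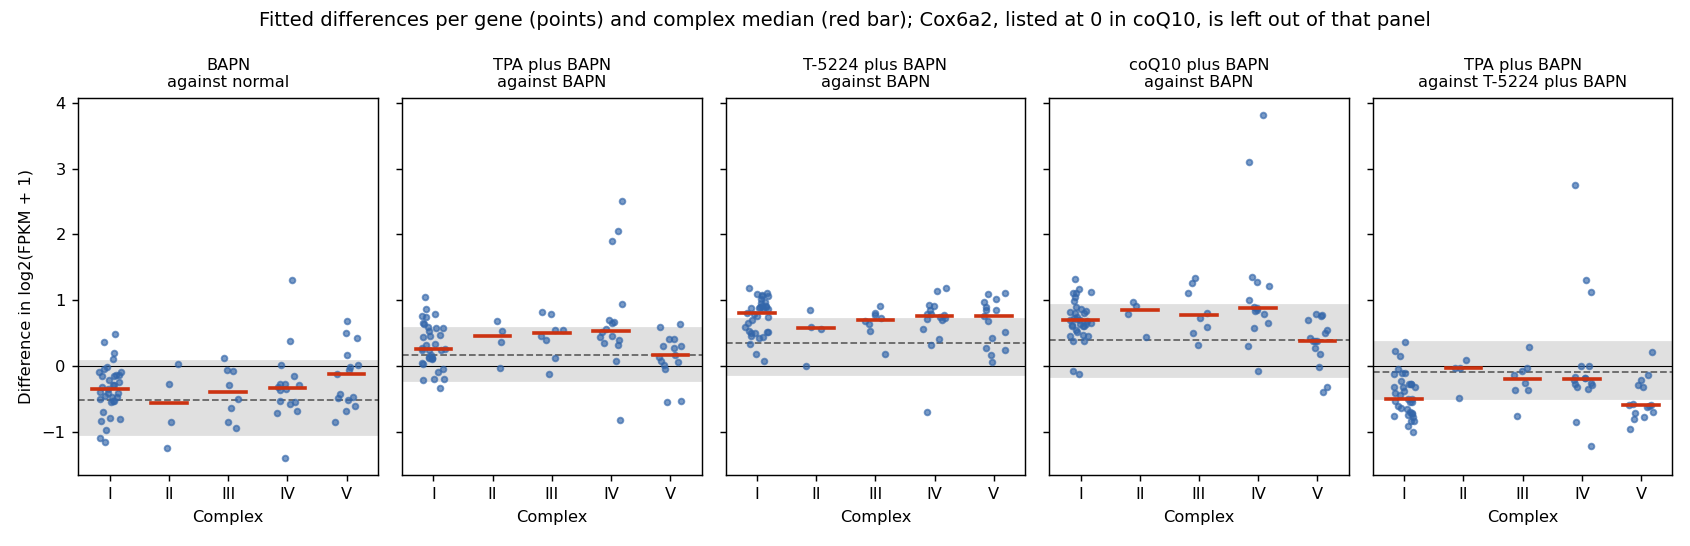
Fitted difference in log2(FPKM + 1) of each gene (points) by complex for the 5 comparisons, with the complex median as a red bar; the dashed line and grey band are the median and the interquartile range of all tested genes. The complex medians lie near or inside the grey band, and in the TPA and coQ10 panels the points farthest above it are muscle isoforms of complex IV, with Cox6a2 left out of the coQ10 panel.

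Complex I, the NADH dehydrogenase, was the largest group. Ndufs1, the iron-sulfur subunit that carries electrons away from the flavin site, was at 63.6 and 23.4 FPKM in the normal libraries, with BAPN at 16.8 and 16.9, TPA at 26.6 and 24.9, T-5224 at 20.8 and 25.7, and coQ10 at 30.5. Both BAPN libraries were below all the others. Its difference in BAPN against normal, -1.15 (SE 0.458), had the smallest p of the members in that comparison and did not pass (limma adjusted p = 0.138). In T-5224 replicate 2, where most members were at their highest, Ndufs1 stood 1.10 log2 units below the level that the members' shared profile gives. Ndufv1, which binds the flavin that accepts electrons from NADH, was at 108 and 38.8 FPKM in normal, with BAPN at 61.3 and 45.7, TPA at 66.8 and 78.6, T-5224 at 27.3 and 113, and coQ10 at 85.7. The T-5224 replicates of Ndufv1 spanned the values of all other libraries.

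Among the accessory subunits of complex I, Ndufb7 had the highest mean, 409 FPKM, at 536 and 210 FPKM in normal, with BAPN at 320 and 226, TPA at 306 and 348, T-5224 at 430 and 874, and coQ10 at 436. Its T-5224 libraries lay above the BAPN libraries, with a difference of 1.19 (SE 0.581, limma adjusted p = 0.322). The narrowest range was that of Ndufa11, a membrane arm subunit, at 31.3 and 22.4 FPKM in normal, with BAPN at 20.8 and 17.0, TPA at 22.7 and 22.4, T-5224 at 31.6 and 40.8, and coQ10 at 29.9. Ndufa11 differed by 0.90 (SE 0.297) between T-5224 and BAPN without overlap of the libraries, and it did not pass (limma adjusted p = 0.211). The widest range belonged to Ndufc2, whose protein sits in the membrane arm, with 51.4 FPKM for normal replicate 2 and 275 for T-5224 replicate 2, with 67.8 and 72.7 in BAPN.

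Complex II, succinate dehydrogenase, links the chain to the citric acid cycle and is encoded wholly in the nucleus. Sdha, the flavoprotein that oxidises succinate, was at 248 and 112 FPKM in normal, with BAPN at 86.7 and 55.8, TPA at 111 and 114, T-5224 at 53.7 and 208, and coQ10 at 138. BAPN was below normal without overlap, with a difference of -1.25 (SE 0.687, limma adjusted p = 0.249). Sdhb, the iron-sulfur subunit, was at 240 and 57.9 FPKM in normal, with BAPN at 122 and 77.5, TPA at 143 and 140, T-5224 at 75.1 and 275, and coQ10 at 169. For Sdhb, normal and T-5224 each overlapped BAPN, and only the TPA and coQ10 libraries lay outside it. Of the membrane anchors that hold the quinone site, Sdhc had the narrowest range (68.3 to 224 FPKM) and Sdhd the widest (32.7 in T-5224 replicate 1 to 168 in replicate 2). Sdhc differed by -0.85 in BAPN against normal and by 0.85 in T-5224 against BAPN, without overlap in either, and passed in neither (limma adjusted p = 0.224 and 0.339).

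Complex III, the cytochrome bc1 complex, showed no member of 8 whose BAPN and normal libraries were apart. Of all tested genes, 15% lay above normal in BAPN without overlap and 51.1% below. Complex V had 1 of 15 below, complex IV 1 of 16 above and 1 below, complex I 1 of 35 above and 3 below, and complex II 2 of 4 below. Uqcrfs1, the Rieske iron-sulfur protein, was at 193 and 56.0 FPKM in normal, with BAPN at 126 and 77.5, TPA at 114 and 101, T-5224 at 50.4 and 253, and coQ10 at 141. Uqcrc1, a core subunit, was at 340 and 124 FPKM in normal, with BAPN at 130 and 86.0, TPA at 171 and 206, T-5224 at 102 and 228, and coQ10 at 231. TPA lay above BAPN for Uqcrc1, by 0.82 (SE 0.604, limma adjusted p = 0.638). The most abundant was Uqcrb, a small subunit, from 311 FPKM in BAPN replicate 2 to 1105.5 in normal replicate 1. Uqcrc2, the other core subunit, had the narrowest range (51.3 to 177 FPKM), and the hinge protein Uqcrh the widest (255 to 1283 FPKM).

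Complex IV held the widest spread across libraries, in its 3 muscle isoforms Cox6a2, Cox7a1 and Cox8b. Cox6a2, the heart and skeletal muscle isoform of subunit 6a, was at 378 and 0.21 FPKM in normal, 77.7 and 34.5 in BAPN, 196 and 244 in TPA and 0.95 and 543 in T-5224. It was not listed in coQ10 and was set to 0 there. The replicates of normal lay on both sides of BAPN and TPA, and so did those of T-5224. Cox6a1, the isoform of other tissues, had the highest mean of all members and the narrowest range in complex IV, at 1827 and 831 FPKM in normal, with BAPN at 861 and 658, TPA at 1007 and 1399, T-5224 at 1225 and 1651, and coQ10 at 1743. A ratio within a library does not depend on how the library was scaled, and Cox6a2 made up 17.1% and 0.025% of the Cox6a1 and Cox6a2 sum in normal, with BAPN at 8.28% and 4.98%, TPA at 16.3% and 14.9%, T-5224 at 0.078% and 24.8%, and coQ10 at 0. Where the share was under 0.1%, in normal replicate 2, T-5224 replicate 1 and coQ10, the skeletal muscle marker means were 1.22, 1.38 and 1.96, and in the other 6 libraries they were at least 6.498. The part of skeletal muscle RNA in the share was not tested.

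Cox7a1, the muscle and brown fat isoform of subunit 7a, followed another order. It was at 269 and 15.6 FPKM in normal, with BAPN at 21.97 and 27.4, TPA at 137 and 151, T-5224 at 64.1 and 51.2, and coQ10 at 358. All TPA, T-5224 and coQ10 libraries lay above both BAPN libraries, and the normal libraries lay on either side of BAPN. The difference was 2.50 (SE 1.13, limma adjusted p = 0.4997) for TPA, 1.19 (SE 1.13, limma adjusted p = 0.580) for T-5224 and 3.81 (SE 1.38, limma adjusted p = 0.217) for coQ10, each against BAPN. The share of Cox7a1 in the sum with Cox7a2, the isoform of other tissues, was 62.8% and 23.0% in normal, with BAPN at 23.4% and 25.9%, TPA at 59.7% and 57.2%, T-5224 at 44.5% and 19.4%, and coQ10 at 72.6%. The TPA shares stood above both BAPN shares by more than the gap within either pair, while the T-5224 shares lay on either side of BAPN. Cox7a2 itself was at 159 and 52.5 FPKM in normal, with BAPN at 72.1 and 78.2, TPA at 92.4 and 113, T-5224 at 79.9 and 213, and coQ10 at 135. Without normal replicate 2, Cox7a1 passed as lower in BAPN than in normal replicate 1 (limma adjusted p = 0.0369), as did 92 of all 12997 genes. That arm is then 1 library, with cardiac and brown fat marker means of 9.62 and 5.62, and other groups supply its spread. With only the TPA and BAPN libraries in the fit, Cox7a1 passed as higher in TPA (limma adjusted p = 0.0151), the only member among 972 genes that passed.

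Cox8b, the muscle and brown fat isoform of subunit 8, was at 263 and 53.4 FPKM in normal, with BAPN at 174 and 49.0, TPA at 346 and 350, T-5224 at 57.2 and 437, and coQ10 at 799.5. The TPA and coQ10 libraries were above BAPN, by 1.90 (SE 1.15, limma adjusted p = 0.578) and 3.10 (SE 1.41, limma adjusted p = 0.278). Cox8a, the isoform of other tissues, ranged from 428 to 1204 FPKM, and Cox8b made up 18.6% and 11.1% of their sum in normal, with BAPN at 20.4% and 8.86%, TPA at 34.4% and 29.6%, T-5224 at 8.44% and 26.6%, and coQ10 at 44.1%. The coQ10 library had the highest share of Cox7a1 and of Cox8b and no listed Cox6a2. That library also had the highest brown fat marker mean, 5.80, with a skeletal muscle mean of 1.96, and the part of these markers was not tested. With Cox6a2, Cox7a1 and Cox8b set aside, the median of the other 77 members was -0.32 for BAPN against normal, 0.33 for TPA, 0.75 for T-5224 and 0.69 for coQ10 against BAPN.

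**Figure D5:**
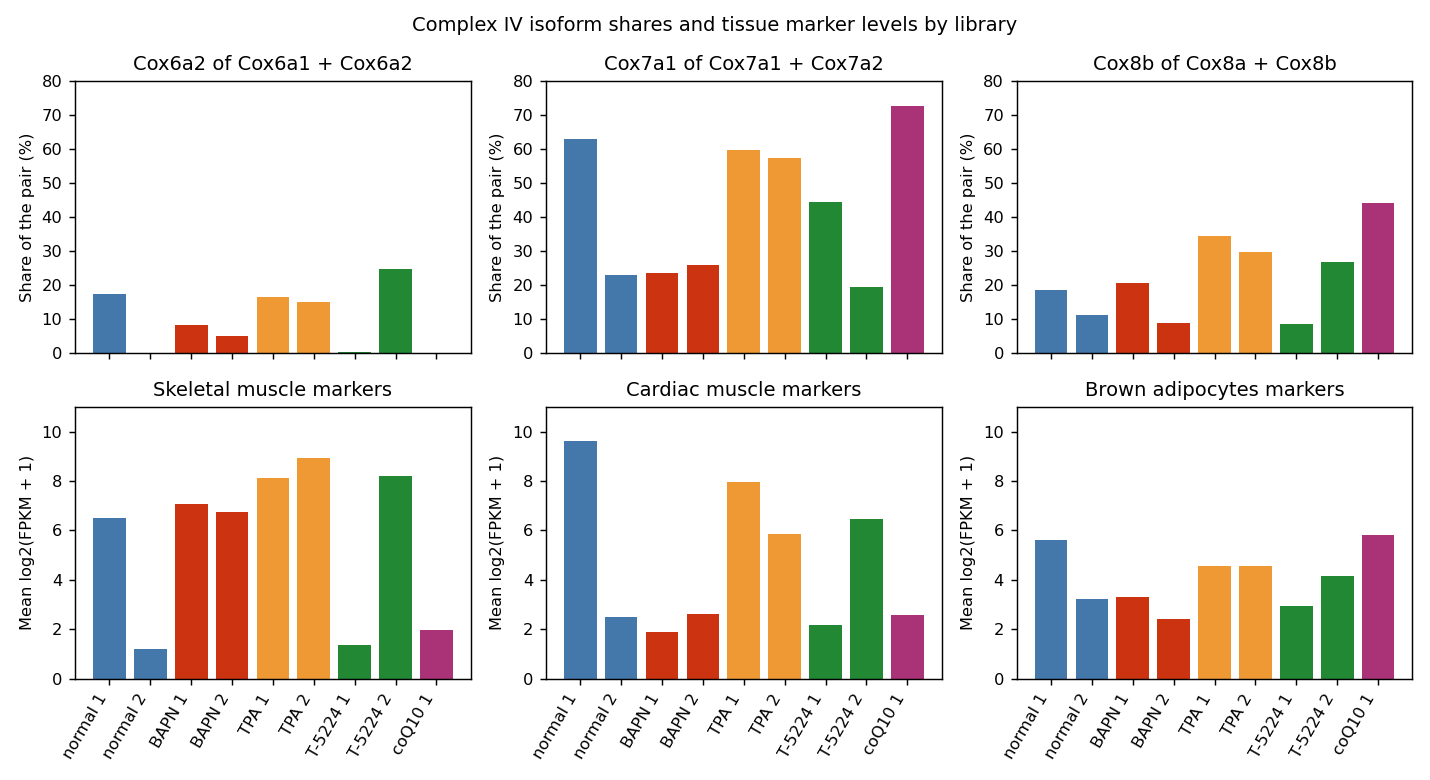
Upper panels give the share (%) of the muscle isoform in its pair for each library, and lower panels the mean log2(FPKM + 1) of skeletal muscle, cardiac muscle and brown adipocyte markers. Cox6a2 is near 0% in the 3 libraries with skeletal muscle means under 2, and coQ10 has the highest Cox7a1 share, 72.6%, the highest Cox8b share, 44.1%, and the highest brown adipocyte mean, 5.80.

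Cox5a, which binds the catalytic core, was at 277 and 71.9 FPKM in normal, with BAPN at 177 and 116, TPA at 184 and 173, T-5224 at 83.3 and 382, and coQ10 at 226. The zinc-binding subunit Cox5b was at 688 and 184, 345 and 237, 311 and 459, 337 and 656, and 428 FPKM in the same order of libraries. Neither separated normal from BAPN or TPA from BAPN. Cox6b2, the testis isoform of subunit 6b, was low, at 9.19 and 7.68 FPKM in normal, with BAPN at 4.22 and 5.54, TPA at 9.68 and 10.9, T-5224 at 9.90 and 14.1, and coQ10 at 13.2. Both BAPN libraries of Cox6b2 were below all 7 others. It had the smallest p of the members in 3 comparisons with BAPN, with differences of 0.95 for TPA, 1.13 for T-5224 and 1.28 for coQ10, and passed in none (limma adjusted p = 0.429, 0.164 and 0.191).

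Cox7a2l, a relative of subunit 7a, stood apart in T-5224 replicate 2. It was at 185 and 141 FPKM in normal, with BAPN at 208 and 215, TPA at 128 and 112, T-5224 at 99.4 and 787, and coQ10 at 201. It was 1 of 2 members with both BAPN libraries above both normal libraries, and TPA lay below BAPN, with a difference of -0.81 (SE 0.865, limma adjusted p = 0.741). Without T-5224 replicate 1, Cox7a2l passed as lower in TPA than in T-5224 replicate 2 (limma adjusted p = 0.0272), 1 of 666 genes that passed. That arm is then the single library at 787 FPKM, and other groups supply its spread. Ndufa4 was at 1172 and 388 FPKM in normal, with BAPN at 531 and 406, TPA at 728 and 646, T-5224 at 507 and 1165, and coQ10 at 835. Ndufa4l2, its hypoxia-inducible relative, held 2.62% to 4.82% of their sum. The subunit 4 genes fall outside the symbol rule: Cox4i1, the main isoform, had a mean of 1006.7 FPKM, and Cox4i2, the isoform of lung and hypoxia, held 0.540% to 2.40% of their sum.

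Complex V, the ATP synthase, had the smallest medians in TPA and in coQ10 against BAPN. Atp5b, the catalytic beta subunit, was at 1259 and 417 FPKM in normal, with BAPN at 499 and 320, TPA at 620 and 631, T-5224 at 265 and 1089, and coQ10 at 651. Atp5a1, the alpha subunit that alternates with beta in the head, was at 562 and 265, 355 and 212, 301 and 302, 169 and 646, and 370 FPKM in the same order. TPA lay above BAPN for Atp5b, by 0.65 (SE 0.805, limma adjusted p = 0.777), but between the BAPN libraries for Atp5a1. The rotating c-ring has a single protein made from 3 genes. Of their sum, Atp5g1 held 16.2% to 28.4%, Atp5g2 32.8% to 48.2% and Atp5g3 32.1% to 47.3%. The BAPN libraries had Atp5g3 shares of 45.0% and 47.3%, above the 32.1% to 41.9% of the other 7. Atp5g3 was at 222 and 147 FPKM in normal, with BAPN at 291 and 203, TPA at 181 and 156, T-5224 at 174 and 370, and coQ10 at 194.

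Smaller subunits of the ATP synthase differed in range. Atp5h, a subunit of the stator stalk, had the highest mean of complex V, 822 FPKM, and reached 1884 FPKM in T-5224 replicate 2. Atp5j2, a membrane subunit, had the widest range, with 318 FPKM for normal replicate 2 and 1733 for T-5224 replicate 2. Atp5j, the stator coupling factor, was at 253 and 162 FPKM in normal, with BAPN at 161 and 123, TPA at 146 and 140, T-5224 at 239 and 320, and coQ10 at 184. Its T-5224 libraries were above BAPN by 0.97 (SE 0.369, limma adjusted p = 0.249) and TPA lay below T-5224 with a difference of -0.95 (SE 0.369, limma adjusted p = 0.447), the smallest p of a member there. Atp5k, which helps ATP synthase form dimers, was at 153 and 63.2 FPKM in normal, with BAPN at 191 and 132, TPA at 102 and 116, T-5224 at 150 and 211, and coQ10 at 157. Among members with a positive difference in BAPN against normal it had the smallest p, at 0.68 (SE 0.485, limma adjusted p = 0.358), and its normal and BAPN libraries overlapped. Atp5k is 1 of 9 members with a pseudogene named after the gene in the annotation, so reads could be split between gene and pseudogene. The other 8 are Ndufa12, Ndufs5, Uqcrh, Cox5b, Cox7c, Atp5c1, Atp5f1 and Atp5l. Only symbols were matched, so likeness of sequence was not measured and pseudogenes under other names were not counted.

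Of the pair that only carry the name, Atp5s was at 3.15 and 1.20 FPKM in normal, with BAPN at 2.97 and 1.73, TPA at 1.40 and 0.84, T-5224 at 1.73 and 4.57, and coQ10 at 3.70. Its TPA libraries were below BAPN, with a difference of -0.65 (SE 0.515, limma adjusted p = 0.661). Atp5sl, now named Dmac2 for its part in assembling the membrane arm of complex I, was between 11.9 and 18.3 FPKM in 8 libraries and at 33.3 FPKM in normal replicate 1.

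Several named members can be placed in GRCm38. Cox6a2 lies on chromosome 7 from 128205435 to 128206366, Cox7a1 on chromosome 7 from 30184171 to 30186030, Cox8b on chromosome 7 from 140898942 to 140900446 and Cox6b2 on chromosome 7 from 4751792 to 4753094. Chromosome 7 held the most members, 9. Ndufs1 lies on chromosome 1 from 63143592 to 63176822, Cox7a2l on chromosome 17 from 83501917 to 83514333 and Atp5j on chromosome 16 from 84827871 to 84835857.

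The wider pathway was described with 68 genes that the symbol rule does not take: Ndufab1, the subunit 4 genes, cytochromes c and c1, assembly factors and transcription factors with coactivators of mitochondrial biogenesis. Of these, 65 were tested, and 0 rose and 0 fell in limma in each of the 5 comparisons. The background was 3.26% of all tested genes in BAPN against normal and 0.0154% to 0.0385% in the other comparisons. The median of the 65 was -0.64 for BAPN against normal, 0.20 for TPA, 0.49 for T-5224 and 0.54 for coQ10 against BAPN, and -0.29 for TPA against T-5224. For all tested genes the medians were -0.51, 0.18, 0.35, 0.39 and -0.08 in the same order. Cytochrome c1 (Cyc1) was at 225 and 63.2 FPKM in normal, with BAPN at 81.4 and 53.8, TPA at 102 and 113, T-5224 at 57.2 and 149, and coQ10 at 131, and cytochrome c (Cycs) at 180 and 38.9, 65.2 and 43.0, 83.0 and 79.95, 56.2 and 83.3, and 81.9 FPKM. The 47 tested assembly factors were far less abundant than the subunits, with a median log2(FPKM + 1) of 2.91 to 3.86 against 6.47 to 8.30 for the 80 members. They shared the normal replicate gap less fully, with 43 of 47 higher in replicate 1 by a median of 0.64, against 1.43 for the members. In T-5224, 29 of 47 were higher in replicate 2, by a median of 0.21, against 1.25 for the members.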

How the data were processed

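Bulk RNA-seq of 9 mouse aorta libraries was analysed. Each library has a table that, per the file headers, gives the authors' FPKM by gene symbol, and it leaves out genes at 0. Build mm10 is named per the submitters' processing notes. Aligner, counting tool and annotation were not given in the sources used here. Unlisted genes were set to 0. Sequencing depth is unknown, since FPKM hold no counts, and this limits the precision of low values. The spacing of low values gave a relative depth for 4 of 8 libraries, 0.933 to 1.07 times that of BAPN replicate 2.

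Values were transformed to log2(FPKM + 1). The 12997 genes whose mean FPKM reached 1 entered limma 3.58.1 (R 4.3.3), a linear model of the 5 groups (4 residual degrees of freedom) moderated along an intensity trend. Tests were two-sided with Benjamini-Hochberg adjustment across the tested genes and a threshold of 0.05. The lone coQ10 library is taken to vary as the other groups do. The procedure was run on simulated data with independent noise for each gene and shifts much larger than the member medians here. That run does not cover small differences or genes that vary together between replicates, as the members did. Other tools were scipy 1.17.1, numpy 2.4.6, matplotlib 3.10.9, pandas 2.3.3 and Python 3.11.15. All 80 members matched RefSeq. Transcript lengths came from GENCODE release M 21, and covered 99.7% of tested genes.

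Named genes were the members with the highest mean and the widest and narrowest range in each complex, those with the smallest p in each direction of each comparison, the isoform sets and the catalytic core genes. Cox7a2l, Ndufb5, Atp5o and Atp5sl, and members listed for lack of overlap or for an unadjusted p, were named after their values were seen. The members and lists were chosen with earlier results of these data known. Alternatives covered the offset (0.1), no filter, 4 other scalings, the length trend, the intensity trend, the libraries in the fit, each replicate left out and a replicate block. Added after seeing the data were scaling to the members' median, and leaving out normal replicate 1 and T-5224 replicate 2 together.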

Additional observations from a re-analysis of the deposited data

How the results depend on the processing

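In 17 of 20 alternatives for BAPN against normal and in 18 of 20 for each other comparison, 0 members passed in limma. After rescaling to TPM, where haemoglobin takes most of the sum in some libraries, 67 members were lower in BAPN against normal (9637 of all 12997 genes passed), 7 were higher in T-5224 (3168 passed) and 52 higher in coQ10 against BAPN (7328 passed), and 31 passed the F test (8301 of all). With only the TPA and BAPN libraries, 1 (Cox7a1) passed, of 972 genes in all. Without normal replicate 1 and T-5224 replicate 2 together, chosen after seeing the data, only BAPN and TPA still had replicates to estimate the spread. The member median for BAPN against normal was then 0.39 (all genes -0.32), and the members called there were all higher in BAPN. Members called in TPA against BAPN were all higher in TPA, while those called in T-5224 and in coQ10 against BAPN went both ways. That fit called 4 members in BAPN against normal (Atp5k, Cox6a2, Ndufa1 and Ndufs4; 4032 genes in all), 2 in TPA (Cox6a2 and Cox7a1, of 1023), 3 in T-5224 (Cox6a2, Cox7a1 and Cox7a2l, of 2245) and 6 in coQ10 against BAPN (Cox6a2, Cox6b2, Cox7a1, Cox8b, Ndufb8 and Ndufc1, of 2967), 1 in TPA against T-5224 (Cox6a2, of 584) and 3 in the F test (Cox6a2, Cox7a1 and Cox8b, of 3094). Leaving out 1 library gave 0 to 1 members in BAPN against normal (Cox7a1, without normal replicate 2, of 92 genes in all), and 0 to 1 in TPA against T-5224 and in the F test (Cox7a2l in both, without T-5224 replicate 1, of 666 and 1016). The 424 genes of BAPN against normal became 0 (without BAPN replicate 1) to 3670 (without T-5224 replicate 2). Under the same omissions the member median relative to all genes ran from -0.37 to 0.71 for BAPN against normal, -0.04 to 0.36 for TPA, -0.22 to 1.09 for T-5224 and 0.13 to 0.47 for coQ10 against BAPN, and from -1.03 to 0.39 for TPA against T-5224. Fits with the replicate number as a replicate block called 0 members in every comparison. Same-numbered libraries of different groups had correlations of deviations from -0.438 to 0.176. With 2 libraries a group, these values cannot decide whether the numbers pair the samples. The cause of these changes was not tested. Depth, which FPKM do not hold, limits the values near 0, such as Cox6a2 at 0.21 FPKM.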

Other observations

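The citric acid cycle, which feeds complexes I and II, was described with 13 genes, all tested. None passed in limma in any of the 5 comparisons (background 3.26% in BAPN against normal and 0.0154% to 0.0385% in the others). The list's mean log2(FPKM + 1) was 7.24 and 6.01 in the normal libraries, with BAPN at 5.97 and 5.42, TPA at 6.25 and 6.32, T-5224 at 5.77 and 6.80, and coQ10 at 6.64. All 13 were higher in normal replicate 1 than in replicate 2, by a median of 1.25, and all 13 higher in T-5224 replicate 2 than in replicate 1, by 1.02. The median difference in BAPN against normal was -0.90, with all 13 below 0, where the median of all tested genes was -0.51 and 72.5% were below 0. Its smallest limma adjusted p was 0.0608, for Ogdh, a subunit of the oxoglutarate dehydrogenase complex.

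Glycolysis was described with 15 genes, all tested. None passed in limma in any of the 5 comparisons (background 3.26% in BAPN against normal and 0.0154% to 0.0385% in the others). Its mean log2(FPKM + 1) was 7.18 and 6.24 in normal, with BAPN at 6.90 and 6.57, TPA at 6.59 and 6.96, T-5224 at 6.25 and 6.57, and coQ10 at 6.74. In normal, 14 of 15 were higher in replicate 1, and the median of replicate 1 minus replicate 2 was 0.96. That median was 0.36 in BAPN, -0.38 in TPA and -0.53 in T-5224, where 9 of 15 were higher in replicate 2. The median difference in BAPN against normal was -0.09, with 10 of 15 below 0. All tested genes had a median of -0.51 there, with 72.5% below 0, so the list stood above all genes.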
